A study of Rattus norvegicus with 6 samples.

Results

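Runx2, Alpl, Spp1 and Bmp2 are 4 genes of early bone formation, and they are described here among the 19458 genes of a deposited expression table. They were chosen by rat Ensembl identifier, as markers of the osteogenic response that nanotube surfaces are meant to promote, and all 4 were present in the table and passed the filter on low values. The table lists identifiers alone, so the symbols are those given with the chosen identifiers: ENSRNOG00000020193 for Runx2, ENSRNOG00000013954 for Alpl, ENSRNOG00000043451 for Spp1 and ENSRNOG00000021276 for Bmp2. The cells were primary wild-type rat bone marrow mesenchymal stem cells, which are stromal cells able to form bone, cartilage and fat. They had been held on titanium dioxide nanotubes of 100 nm (3 libraries) or on a smooth surface (3 libraries) for 6 hours in medium with serum, with no osteogenic supplement named in the labels. The labels do not say which animals or cultures the libraries came from, so every p-value below measures the spread between libraries, which may be technical. Markers of stromal and of blood cells were not analysed here, because no table used here pairs the identifiers with symbols. The labelled cell type was therefore not checked.

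Runx2 is the transcription factor that commits mesenchymal cells to the osteoblast lineage, and it binds short DNA elements in the promoters of bone genes. Bmp2 is a secreted ligand of the TGF-beta family that signals through serine/threonine kinase receptors and Smad proteins and raises Runx2 in osteoblast precursors. Alpl encodes tissue-nonspecific alkaline phosphatase, an enzyme of the cell surface that breaks down pyrophosphate, an inhibitor of mineral formation. Spp1 encodes osteopontin, a secreted phosphoprotein of bone matrix through which cells attach by integrins. In culture, Runx2 and Alpl mark early steps of osteoblast differentiation, and Spp1 is also made by other cells, macrophages among them.

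The promoters are shown because Runx2 acts on such sequences and because Runx2 itself is transcribed from a distal and a proximal start, which the table's 1 value per gene does not separate. Matched by symbol, RefSeq (rat build GRCr8) gave promoter windows for 3 of the 4 genes, of 250 bases before and 50 after each listed start. The 250 bases before each start follow, 5′ to 3′ on the gene's strand. Capitals mark matches to AACCACA (the Runx element of the osteocalcin promoter), to the wider form AACCNCA or to TATAAA. All were searched on both strands over the whole window.
Runx2 distal start, chr9:23664808-23665057, plus strand: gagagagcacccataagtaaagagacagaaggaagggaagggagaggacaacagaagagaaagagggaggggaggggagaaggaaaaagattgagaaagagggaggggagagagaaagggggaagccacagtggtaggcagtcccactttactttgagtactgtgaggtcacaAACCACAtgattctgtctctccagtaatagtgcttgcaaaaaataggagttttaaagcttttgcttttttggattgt
Runx2 proximal start, chr9:23742990-23743239, plus strand: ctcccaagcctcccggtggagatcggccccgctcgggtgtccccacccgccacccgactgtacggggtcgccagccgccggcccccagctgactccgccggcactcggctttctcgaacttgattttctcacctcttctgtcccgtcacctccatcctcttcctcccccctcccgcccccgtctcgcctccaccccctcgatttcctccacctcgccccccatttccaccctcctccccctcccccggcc
Alpl, chr5:155289786-155290035, minus strand: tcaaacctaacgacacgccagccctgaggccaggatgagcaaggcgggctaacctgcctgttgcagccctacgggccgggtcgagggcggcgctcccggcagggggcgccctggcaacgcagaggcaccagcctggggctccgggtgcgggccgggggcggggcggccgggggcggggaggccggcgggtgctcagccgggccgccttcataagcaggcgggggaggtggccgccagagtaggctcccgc
Spp1, chr14:5619805-5620054, minus strand: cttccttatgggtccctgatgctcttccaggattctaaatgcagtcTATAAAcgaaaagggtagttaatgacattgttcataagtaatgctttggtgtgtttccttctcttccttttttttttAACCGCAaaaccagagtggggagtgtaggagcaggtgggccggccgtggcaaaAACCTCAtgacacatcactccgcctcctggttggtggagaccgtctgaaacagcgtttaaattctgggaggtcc

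The window of the distal Runx2 start held AACCACA 3 times, beginning at positions -77, 27 and 35 relative to the start, of which the first is in the printed bases. At least 1 match was found in 5.57% of the 33469 rat promoter windows, and 3 or more in 6 windows (0.018%). The windows of the proximal Runx2 start, Alpl and Spp1 held no AACCACA. The wider form AACCNCA, which was added after these sequences had been seen and includes every AACCACA, occurred in the Spp1 window at positions -127 and -74, and in 15.32% of all windows. TATAAA was found in the Spp1 window at position -204, and in 14.22% of all windows. The CpG content differed between the starts: the printed bases held 0 CpG sites before the distal and 21 before the proximal Runx2 start, 25 before the Alpl start and 7 before the Spp1 start. These matches describe letters and were not tied to any measurement of binding.

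Each library held between 16299799 and 17624390 reads, as recovered from the deposited FPKM (fragments per length of gene model and per library total). Libraries did not stand apart by surface alone. The genes tested were the 11865 whose mean reached 1 FPKM. Over these, nanotube library 3 and smooth library 2 had the smallest median absolute difference of all pairs of libraries, at 0.103 on the log2(FPKM + 1) scale. Nanotube library 3 was 0.307 and 0.242 from nanotube libraries 1 and 2. In 67.8% of the tested genes the value of smooth library 3 was within the range of smooth libraries 1 and 2. The top 10 genes by reads held between 8.35% and 13.61% of all reads in a nanotube library, against 7.97% to 11.38% in a smooth one. The part of these library differences in the results below was not tested.

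The surfaces were compared to ask whether the bone genes respond early to nanotubes. Runx2 was the gene of the 4 whose levels separated the surfaces, and it was lower on nanotubes, with a ratio of mean FPKM of 0.763. Of all tested genes, 7.49% separated the surfaces in this direction and 4.72% in the other. Alpl and Bmp2 had higher means on nanotubes, each through 1 library, and Spp1 had a lower mean with overlapping groups. None of the 4 passed an adjusted p of 0.05 in the limma fit (Benjamini-Hochberg over 11865 genes, 3 libraries per surface). No tested gene did, so the share called was 0%. The unadjusted limma p was under 0.05 for Runx2 alone among the 4, and for 724 genes, or 6.10%, of those tested. With voom, fitted to whole reads, 0 genes were called as well. A limma fit to all 19458 genes, without the filter on low values, also called 0. Its smallest adjusted p was 0.0572, against 0.753 in the main limma fit.

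Runx2, the lineage transcription factor, had 6.84, 6.66 and 7.45 FPKM in nanotube libraries 1, 2 and 3, and 9.46, 8.67 and 9.30 FPKM in smooth libraries 1, 2 and 3. Every nanotube library lay below every smooth library, a pattern shared by 7.49% of the tested genes. The opposite pattern, every nanotube library above every smooth one, was found in none of the 4 and in 4.72% of the tested genes. Means were 6.98 ± 0.414 FPKM on nanotubes and 9.14 ± 0.420 FPKM on smooth (SD, n = 3 libraries each). The log2 fold change was -0.35 (standard error 0.10), with a 95% interval of -0.58 to -0.11, an unadjusted limma p of 0.0111 and an adjusted p of 0.753. The exact two-sided permutation test gave p = 0.1, the smallest that 3 libraries against 3 allow. The difference was larger than the spread of Runx2 within either surface, but 15.3% of the tested genes had a larger log2 fold change in either direction. With any 1 library left out, the log2 fold change stayed between -0.39 and -0.32, and the unadjusted limma p was highest without smooth library 3, at 0.0535. A bulk library cannot tell fewer Runx2-expressing cells from less Runx2 RNA per cell, which holds for all 4 genes.

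**Figure D1:**
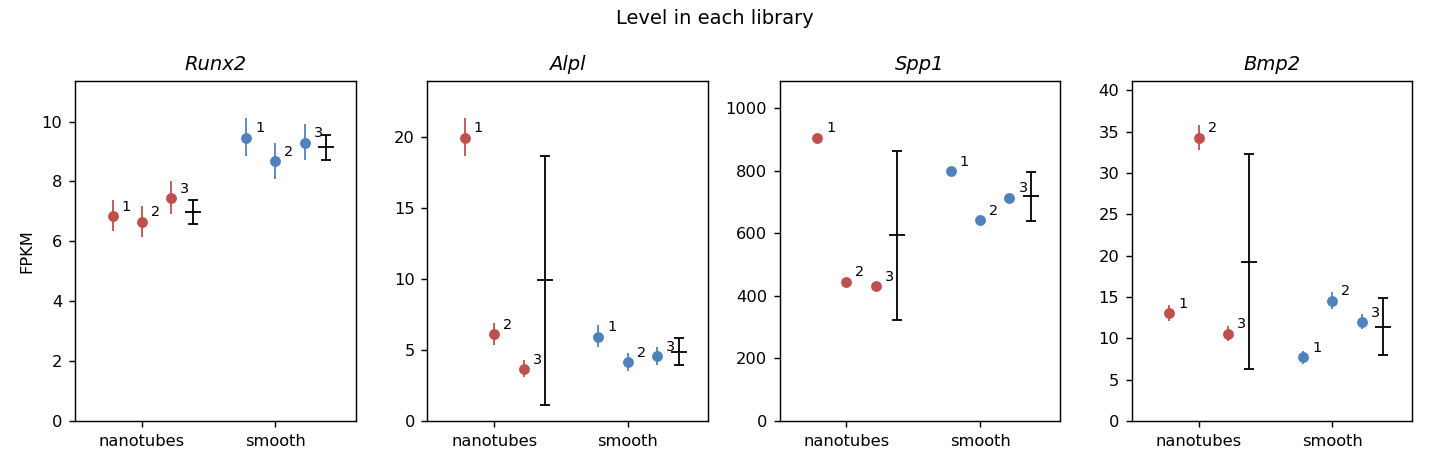
FPKM of each gene (vertical axes, 1 scale per gene) in the 3 nanotube libraries (red) and the 3 smooth libraries (blue), numbered by library. Coloured bars are exact 95% counting intervals and black bars the mean ± SD. The Runx2 groups do not overlap, while Alpl is highest in nanotube library 1 (19.98 FPKM) and Bmp2 in nanotube library 2 (34.3 FPKM).

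Alpl, the alkaline phosphatase gene, was high in 1 library. It had 19.98 FPKM in nanotube library 1, and 6.10 and 3.66 FPKM in nanotube libraries 2 and 3, against 5.94, 4.14 and 4.56 FPKM in smooth libraries 1, 2 and 3. Apart from nanotube library 1 the groups overlapped, and the lowest Alpl level of all was in nanotube library 3. The value in nanotube library 1 rested on 858 reads and was 3.27 times that of the next highest library (exact 95% counting interval 2.85 to 3.78), so counting error does not cover it. In 132 of the 11865 tested genes nanotube library 1 was 3-fold or more above every other library, against between 1 and 16 genes for each other library. Means were 9.91 ± 8.81 FPKM on nanotubes and 4.88 ± 0.945 FPKM on smooth (SD, n = 3 libraries each). The log2 fold change was 0.60 (standard error 0.52) with a 95% interval of -0.64 to 1.85 (limma adjusted p 0.836, exact permutation p = 0.6). Without nanotube library 1 it was -0.02, with an interval of -0.61 to 0.57.

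Bmp2, the ligand, was also set by 1 library, but a different one. It had 34.3 FPKM in nanotube library 2, and 13.0 and 10.6 FPKM in nanotube libraries 1 and 3, against 7.68, 14.5 and 12.0 FPKM in smooth libraries 1, 2 and 3. Nanotube libraries 1 and 3 lay within the range of the smooth libraries. The high value came from 1893 reads and was 2.36 times the next highest (exact 95% counting interval 2.17 to 2.57). In 60 tested genes (0.506%) nanotube library 2 was 2-fold or more above every other library. The same count was 192 for nanotube library 1 and between 7 and 17 for each remaining library. At the 3-fold cut used for Alpl it was 16 for nanotube library 2. Means were 19.3 ± 13.0 FPKM on nanotubes and 11.4 ± 3.47 FPKM on smooth (SD, n = 3 libraries each), with a log2 fold change of 0.57, a standard error of 0.44 and a 95% interval of -0.48 to 1.62 (limma adjusted p 0.821, exact permutation p = 0.5). Without nanotube library 2 the log2 fold change was 0.08, with an interval of -0.59 to 0.75. Without smooth library 1, the lowest library, it was 0.33.

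Spp1, the osteopontin gene, was the most abundant of the 4 in every library. It had 905 FPKM in nanotube library 1, and 445 and 431 FPKM in nanotube libraries 2 and 3, against 797, 641 and 714 FPKM in smooth libraries 1, 2 and 3. Its highest and its lowest values were thus both on nanotubes, and nanotube libraries 2 and 3 lay below every smooth library. Means were 594 ± 269.9 FPKM on nanotubes and 717 ± 78.3 FPKM on smooth (SD, n = 3 libraries each). The log2 fold change was -0.36 (standard error 0.30) with a 95% interval of -1.07 to 0.36 (limma adjusted p 0.831, exact permutation p = 0.4). Without nanotube library 1 it was -0.71, with an interval of -1.06 to -0.35, an unadjusted limma p of 0.00313 and an adjusted p of 1. Without nanotube library 2 or 3 it was -0.19 or -0.17. With 11087 reads or more in each library, counting error is small against these differences.

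**Figure D2:**
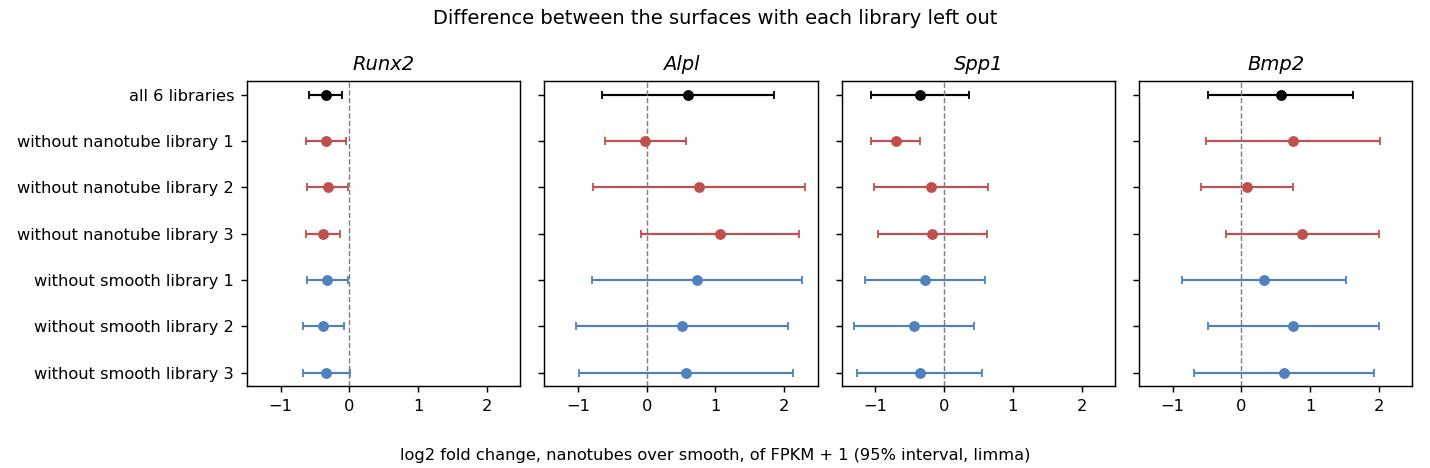
Log2 fold change of nanotubes over smooth (horizontal axis, log2(FPKM + 1) scale) with its 95% limma interval, for all 6 libraries (black) and with 1 nanotube (red) or smooth (blue) library left out. Runx2 stays between -0.39 and -0.32, whereas Alpl moves to -0.02 without nanotube library 1 and Bmp2 to 0.08 without nanotube library 2.

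Set against all tested genes, Alpl and Bmp2 had the larger differences of means and also the wider intervals. The log2 fold changes of all tested genes had a 5th percentile of -0.46, a median of -0.04 and a 95th percentile of 0.36, and the median of the 4 bone genes was 0.11. Only 4.16% of the tested genes had a larger fold change in either direction than Alpl, and 4.85% a larger one than Bmp2. The share was 14.5% for Spp1. The intervals of Alpl, Bmp2 and Spp1 span 0 and reach, on the linear scale of FPKM + 1, a ratio of 3.61 for Alpl and 3.08 for Bmp2 at the upper end and 0.477 for Spp1 at the lower end. These data do not show equal levels of the 3 genes on the surfaces.

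**Figure D3:**
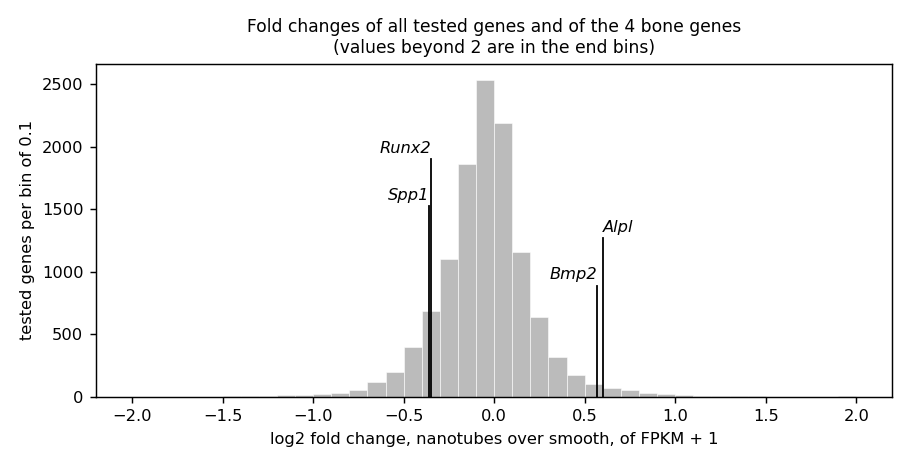
Number of tested genes (vertical axis) by log2 fold change of nanotubes over smooth (horizontal axis, log2(FPKM + 1) scale), with lines at the 4 bone genes. Alpl (0.60) and Bmp2 (0.57) lie above the 95th percentile of 0.36, and Runx2 (-0.35) and Spp1 (-0.36) lie above the 5th percentile of -0.46.

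The 4 genes varied to different degrees between libraries of 1 surface. The SD of log2(FPKM + 1) among nanotube libraries was 1.12 for Alpl, 0.86 for Bmp2, 0.60 for Spp1 and 0.07 for Runx2. Among smooth libraries it was 0.23 for Alpl, 0.43 for Bmp2, 0.16 for Spp1 and 0.06 for Runx2. For each gene, the tested genes whose mean FPKM was within 2-fold of its own served as the background. Of the 4352 such genes for Alpl, 1.29% had a larger SD on nanotubes and 28.7% on smooth. For Bmp2 it was 2.08% of 4621 genes, and on the smooth surface 6.25%. Runx2 lay at the other end, since 88.9% of 4444 genes of similar level had a larger SD on nanotubes and 84.5% on smooth. For Spp1, 9.94% of 181 genes had a larger SD on nanotubes and 57.5% on smooth. Genes were matched on FPKM and not on reads, so counting error can differ between a gene and its background. Runx2 had between 649 and 912 reads per library, and Alpl between 151 and 858. The part of counting error in the shares was not tested. The shares describe the libraries and have no test.

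**Figure D4:**
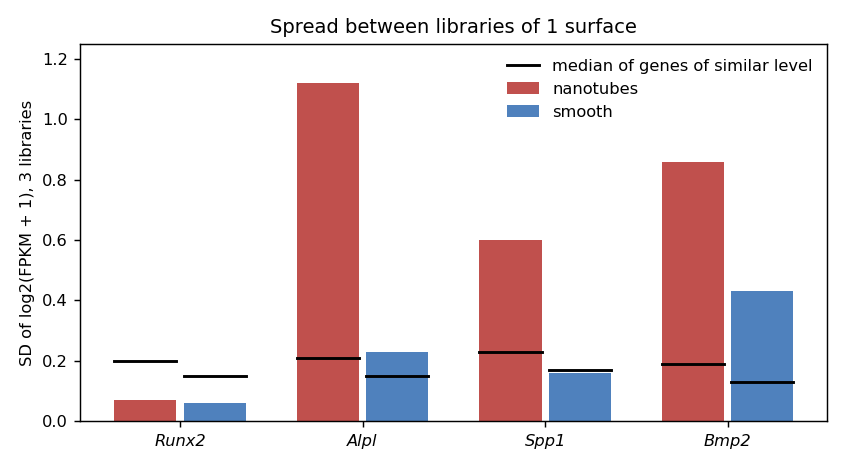
SD of log2(FPKM + 1) over the 3 libraries of each surface (bars, nanotubes in red and smooth in blue), with the median SD of genes within 2-fold of the same mean FPKM (black lines). The nanotube bars of Alpl (1.12), Bmp2 (0.86) and Spp1 (0.60) are well above their lines at 0.21, 0.19 and 0.23, and both Runx2 bars are below theirs.

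The ligand, the transcription factor, the enzyme and the matrix protein did not share 1 pattern over the 6 libraries. After each gene was centred on its own mean, the root mean square difference of log2(FPKM + 1) between members was smallest for Runx2 and Spp1, at 0.37. It was largest for Alpl and Bmp2, at 0.929. The genes were not scaled, so this measure also grows with the size of each gene's own swings and does not rank likeness of shape. Root mean square deviations from the own mean were 0.182 for Runx2, 0.402 for Spp1, 0.624 for Bmp2 and 0.725 for Alpl. Alpl and Spp1 were both highest in nanotube library 1 and lowest in nanotube library 3. Bmp2 was lowest in smooth library 1, where Runx2 was highest. In all 4 genes the value of nanotube library 3 fell outside the range of the other nanotube libraries. Most tested genes shared this position, since only 24.0% had the value inside that range, so it was not particular to the bone genes. Smooth library 3 was within the range of smooth libraries 1 and 2 in all 4 genes, and in 67.8% of the tested genes.

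Nanotube library 3 and smooth library 2, the closest pair of libraries, were set side by side for the 4 genes. Spp1 had 431 FPKM in nanotube library 3 and 641 FPKM in smooth library 2, a ratio of 0.672 (exact 95% counting interval 0.656 to 0.688), and 2.38% of the tested genes were further apart. Bmp2 had 10.6 FPKM in nanotube library 3 and 14.5 FPKM in smooth library 2, a ratio of 0.726 (0.651 to 0.810), with 4.76% of the tested genes further apart. The ratio was 0.859 (0.776 to 0.951) for Runx2, with 23.2% of the tested genes further apart. For Alpl it was 0.884 (0.705 to 1.11), an interval that includes 1, with 36.7% further apart. All 4 genes were lower in nanotube library 3 of this pair, Alpl within counting error, as were 53.2% of the tested genes. Counting intervals leave out the variation between cultures.

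By mean FPKM over the 6 libraries the order of levels was Spp1 (655), Bmp2 (15.3), Runx2 (8.06) and Alpl (7.40). The last 2 places turned with the surface: on nanotubes the mean of Alpl (9.91 FPKM) was above that of Runx2 (6.98 FPKM), through nanotube library 1, and on smooth Runx2 (9.14 FPKM) was above Alpl (4.88 FPKM). Spp1 ranked between 52 and 165 of the 19458 genes in each library, and took between 0.0654% and 0.138% of the reads. Spp1 exceeded Bmp2 in 6 of 6 libraries, by 13.0-fold to 104-fold. Bmp2 exceeded Runx2 in 5 of 6 libraries, with smooth library 1 as the exception, and Runx2 exceeded Alpl in 5 of 6, with nanotube library 1 as the exception. In exact two-sided sign-flip permutation tests of the log2 ratio over the 6 libraries, the 3 neighbouring pairs gave p = 0.0312 for Spp1 over Bmp2, the smallest possible, 0.0625 for Bmp2 over Runx2 and 0.344 for Runx2 over Alpl. The Benjamini-Hochberg adjusted permutation values were 0.0938, 0.0938 and 0.344. The pairs were taken from the order of means in these same libraries, both surfaces together, so the tests are no independent support for that order. None of the 3 passed an adjusted p of 0.05, so over the 6 libraries together the tests did not settle the order of any pair. On smooth alone, the lowest Runx2 value (8.67 FPKM) was above the highest Alpl value (5.94 FPKM).

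For each bone gene the gene most alike in pattern was the one with the smallest root mean square difference of centred log2(FPKM + 1) over the 6 libraries, among all tested genes. With 6 libraries and 11865 genes a close match is easily found, so these are descriptions. ENSRNOG00000061215 was most like Runx2, at a difference of 0.045, and rested on only 60 to 82 reads per library. It had 2.83, 2.93 and 3.09 FPKM in nanotube libraries 1, 2 and 3 and 3.87, 3.57 and 3.92 FPKM in smooth libraries 1, 2 and 3. ENSRNOG00000037339 was most like Alpl, at 0.127, with 6.93 FPKM in nanotube library 1 and between 0.703 and 1.36 FPKM in the others (39 to 400 reads per library). ENSRNOG00000008048 was most like Bmp2, at 0.159, with 26.4 FPKM in nanotube library 2 and between 8.17 and 11.9 FPKM in the others (349 to 1194 reads per library). ENSRNOG00000035653 was nearest to Spp1, at 0.1, but rested on 1 to 4 reads per library.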

How the data were processed

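RNA sequencing libraries of 6 samples, 3 per surface, were made from 3 µg of total RNA with a NEBNext Ultra kit, per the labels' protocols. The authors deposited 1 table of FPKM values, 1 column per library. The submitters' processing notes list HTSeq, Bowtie 1.0.1 and HISAT2 2.1.0 with no role, and the mouse builds mm10 and GRCm38, although the identifiers are those of rat genes. The rat build, annotation, strand setting and filters were not given in the sources used here, so overlapping, antisense or near-identical genes cannot be told apart. The identifiers of the table occur 0 times in the reference table of 47357 rat genes, so other bone genes and cell type markers, listed by symbol, were not analysed.

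Libraries were grouped by the surface in the labels. The titles number 4 libraries, and the number 3 of the others is only a name, from the table. Whole reads were recovered from FPKM: the inverse of a value from 1 read is proportional to gene length times library total, so common divisors of such inverses give the totals. Gene lengths were then chosen to make the values whole (relative tolerance 1e-12). With these lengths all 116748 values, zeros included, came out whole, and their sums reached 99.74% to 99.77% of the totals. Reads that share a factor with the gene length come out too low.

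limma 3.58.1 (R 4.3.3) with a mean-variance trend was fitted to log2(FPKM + 1) of the 11865 genes whose mean over the 6 libraries reached 1 FPKM, with no rescaling and no covariate, and p-values were Benjamini-Hochberg adjusted over these genes. Fold changes are on that scale, which understates those of low genes. Permutation tests and exact intervals used SciPy 1.17.1, and intervals from reads cover counting error only. The fit and the read recovery were tested on simulated data. Alternatives were pseudocounts of 0.1 and 5, no filter or one at 5 FPKM, median-of-ratios scaling, voom on the reads, a replicate block and libraries left out. The text names the 4 genes whatever their values, and for each the gene most alike in pattern. The members, lists and tests were chosen with earlier results of these data known.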

Additional observations from a re-analysis of the deposited data

How the results depend on the processing

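With all 6 libraries 0 genes were called, and a pseudocount of 0.1 or of 5, a filter at 5 FPKM or none, median-of-ratios scaling, voom and the fits on the 4 numbered libraries also gave 0. Leaving out 1 library gave 0 to 1 genes, the 1 being without nanotube library 3, where 2200 genes had an unadjusted limma p under 0.05, against 724 with all libraries. Under those same leave-outs the log2 fold change ranged from -0.39 to -0.32 for Runx2, from -0.0198 (without nanotube library 1, the only change of sign) to 1.07 for Alpl, from -0.71 to -0.17 for Spp1 and from 0.08 to 0.88 for Bmp2. Without the last library of each surface it was -0.38 for Runx2, 1.03 for Alpl, -0.17 for Spp1 and 0.94 for Bmp2. No fit called any of the 4 genes. Runx2 had an unadjusted limma p between 0.00703 and 0.0721 over the alternatives.

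Deviations from the surface means correlated across genes at 0.32 for the libraries numbered 1 and at -0.21 for those numbered 2. Libraries of unlike number were not correlated for comparison, so these values cannot decide whether shared numbers are pairs. The labels do not say so either, and the main fit did not read them as pairs. With the replicate block on the 4 numbered libraries, 0 genes were called and 1356 had an unadjusted limma p under 0.05, against 1051 without the block. With the block, Bmp2 had a log2 fold change of 0.94 (95% interval 0.41 to 1.47, unadjusted limma p 0.0088, adjusted 0.416). Alpl had 1.03 (0.07 to 1.99, 0.041 and 0.432), so that both intervals left out 0. Without the block, the same 4 libraries gave the same fold changes. Their intervals then included 0, at -0.42 to 2.30 for Bmp2 and -0.37 to 2.44 for Alpl, as with all 6 libraries. The narrower intervals rest on reading shared numbers as pairs. With the block, Runx2 had -0.38 (-0.81 to 0.06, 0.0721 and 0.465), so that Runx2 was no longer the gene of the 4 with an unadjusted p under 0.05. Without the block, its unadjusted limma p on these 4 libraries was 0.0573. The planned block on 6 libraries was not run, because the labels give the last libraries no number. In Alpl, Bmp2 and Spp1 the spread between nanotube libraries exceeds the counting error of the reads.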
